A study of Mus musculus with 12 samples.

Results

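The interferon regulatory factors (IRFs) are transcription factors that share a DNA-binding domain of the winged helix type and bind interferon-stimulated response elements and related DNA. The 8 genes described here, Irf1, Irf2, Irf3, Irf4, Irf5, Irf7, Irf8 and Irf9, were chosen by symbol and make up 8 of the 55291 gene symbols in the count table. The rule for that choice used symbols and no measured value, but earlier results of these data were known when it was made.

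The study measured RNA of CD8+ T cells isolated from spleen and lymph nodes of male wild-type mice by RNA sequencing of rRNA-depleted libraries, with 3 libraries in each of 4 groups. Naive cells were lysed directly after isolation (day 0). All other cells were stimulated for 2 days through CD3, with antibody bound to the plate, and CD28, expanded for 1 day with rmIL-2, and then kept for 24 h in 1 of 3 environments: media alone, a gel of bovine collagen (Nutragen, 2 mg/mL), or a gel of rat tail collagen (RatCol, 2 mg/mL). Day 4 groups therefore share the activation and the IL-2, and each gel group also went through recovery from its gel before RNA was extracted. The labels name neither strain nor age, and nothing states whether each library came from a separate mouse, so p-values measure the spread between these libraries.

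As background, IRF3 and IRF7 are switched on by phosphorylation downstream of nucleic acid sensors and drive type I interferon genes. IRF9 is the DNA-binding subunit of ISGF3, the complex through which type I interferons raise their target genes, Irf7 among them. IRF1 activates antigen presentation genes and IRF2 binds the same elements, often in its place; IRF4 and IRF8 bind DNA poorly alone and work with ETS or AP-1 partners, and in CD8+ T cells IRF4 is induced in proportion to T cell receptor signal strength and sustains expansion and effector differentiation.

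Irf1 and Irf8 are textbook targets of interferon gamma, so the promoters were read for the gamma-activated sequence (GAS, TTCNNNGAA), and for the core of the interferon-stimulated response element (GAAANNGAA). Windows ran from 250 bases before to 50 bases after each RefSeq start (GRCm38.p6), and both strands were searched. All 8 genes matched at least 1 window. GAS was present in 8.30% of 32851 windows of this length and the response element core in 8.56%. Of the 8 genes, 3 had a match to either in at least 1 window. Irf1, Irf8 and Irf9 had 2 windows each, and window 2 of Irf1 and of Irf8 had no match. The shares above are for 1 motif in 1 window, so they are no background for this count of genes. For each of the 3 genes, the 250 bases upstream of the start in the window with matches are shown, 5′ to 3′ on the plus strand. These are the letters behind that count. Capitals mark the matches: GAS in Irf8 and Irf1, and in Irf2 first the response element core and then GAS.

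Irf8, chr8:120736108-120736357: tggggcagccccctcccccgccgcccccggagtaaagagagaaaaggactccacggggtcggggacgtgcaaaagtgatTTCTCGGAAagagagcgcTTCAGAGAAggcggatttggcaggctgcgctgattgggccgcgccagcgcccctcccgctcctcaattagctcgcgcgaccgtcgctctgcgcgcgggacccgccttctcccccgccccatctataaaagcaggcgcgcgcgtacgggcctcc
Irf1, chr11:53769764-53770013: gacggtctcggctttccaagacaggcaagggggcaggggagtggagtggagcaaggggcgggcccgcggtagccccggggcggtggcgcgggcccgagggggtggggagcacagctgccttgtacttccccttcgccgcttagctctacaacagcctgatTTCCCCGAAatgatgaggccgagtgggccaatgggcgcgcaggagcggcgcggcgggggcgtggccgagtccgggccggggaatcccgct
Irf2, chr8:46739495-46739744: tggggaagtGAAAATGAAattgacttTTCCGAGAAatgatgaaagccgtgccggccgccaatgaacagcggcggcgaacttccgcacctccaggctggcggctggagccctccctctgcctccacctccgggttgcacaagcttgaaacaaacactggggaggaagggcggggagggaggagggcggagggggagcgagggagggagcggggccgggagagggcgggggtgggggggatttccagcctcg

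In the Irf8 window shown, the GAS matches began 171 and 153 bases before the start. The Irf1 match began 90 bases before it. In the Irf2 window the response element core began 241 bases before the start and GAS 224 bases before it. An ETS-IRF composite motif (GGAANNGAA, in 8.24% of windows) matched in the Irf2 window alone, where it overlapped the response element core. The AP-1 motif (TGANTCA, in 7.81%) had no match in any of the genes' windows. A match is a match of letters and does not show that a factor binds there.

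The libraries held 28483064 to 53138362 counts over all genes. Ribosomal RNA genes took 11.2%, 12.02% and 13.4% of the counts in rat tail library 1, bovine library 2 and rat tail library 3, against 4.03% to 6.57% in the other 9. Malat1, a nuclear noncoding RNA, took 1.11% to 1.47% in rat tail libraries and 0.18% to 0.30% in media. Markers of CD8+ T cells (Cd3e, Cd3d, Cd8a, Cd8b1, Trac) were abundant in every library, with a summed level of 1773 to 3490 counts per 1000000 counts (CPM). The sum was lowest in the rat tail libraries, at 1772.8 to 2031.5 CPM. It was 2312.5 to 2500.8 CPM in media, 2333.9 to 2524.1 in bovine collagen and 2879.7 to 3489.5 in naive cells. Trac (log2 fold change -0.97) and Cd3d (-0.57) were lower in rat tail collagen than in media, and Cd3e, Cd8a and Cd8b1 were not called. Of 6 myeloid markers, Lyz2 and Csf1r reached 58.4 and 41.2 CPM in naive library 1 but at most 0.13 and 0.08 CPM in any day 4 library. Adgre1 also was lower on day 4 (mean 4.35 CPM in naive cells and 0.04 in media). The others did not share that pattern. Cd68 averaged 6.89 CPM in naive cells, 6.35 in media and 18.8 in rat tail collagen. Itgam averaged 1.73, 3.03 and 1.08 CPM in these groups, and Cd14 0.59, 0.09 and 0.90 CPM. In bulk RNA, fewer cells of a type and less RNA per cell cannot be told apart.

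Per kilobase of exon, Irf1 was the most abundant of the 8 in every group. Its share of the summed level (CPM per kb) was 45.8% ± 1.35 in naive cells, 43.8% ± 3.75 in media, 39.0% ± 0.49 in bovine collagen and 36.4% ± 1.87 in rat tail collagen (SD, n = 3). Irf4 went from 1.54% ± 0.04 of the sum in naive cells to 18.03% ± 1.90 in media and 13.6% ± 0.78 in rat tail collagen. Irf8 took 3.61% ± 0.11 in media and 16.3% ± 1.66 in rat tail collagen, and Irf7 took 12.6% ± 1.14 in naive cells and 1.44% ± 0.43 in rat tail collagen. The sum over the 8 genes was 178.3 ± 4.11 CPM per kb in naive cells, 188.3 ± 18.3 in media, 167.0 ± 3.92 in bovine collagen and 142.2 ± 3.20 in rat tail collagen. The exon lengths join all annotated transcripts, and for Irf7 they cover the gene without a break because some transcripts retain introns, so the level of Irf7 per kb is set low beside the others.

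**Figure D1:**
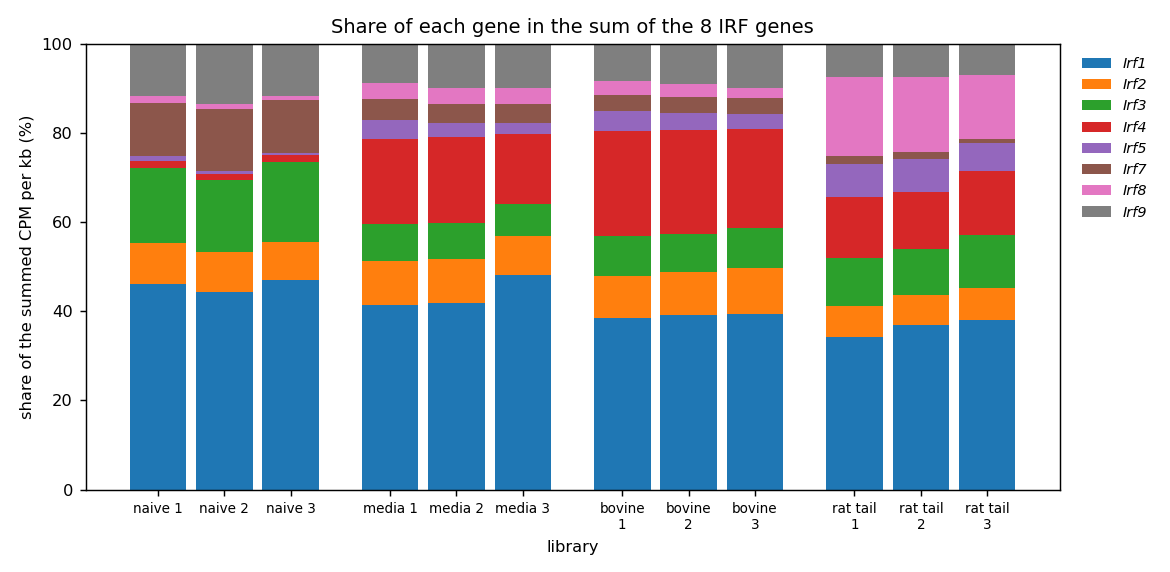
Share of each of the 8 IRF genes in their summed level (CPM per kb of exon, in percent) in each of the 12 libraries. Irf4 and Irf8 hold small shares in naive libraries, Irf4 is large in media and bovine collagen, and Irf8 takes 14.5% to 17.7% in the rat tail libraries.

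Against media, rat tail collagen changed 7 of the 8 genes: Irf8 and Irf5 rose, and Irf7, Irf2, Irf9, Irf4 and Irf1 fell (edgeR quasi-likelihood test, Benjamini-Hochberg adjusted p under 0.05). Among all 19392 genes tested, 58.4% were called in that comparison, so a call there is common, and nothing particular to the family is read from the count. The median log2 fold change of the 8 was -0.72, beside -0.01 over all genes tested. Libraries of the compared groups did not overlap for 8 of the 8 genes and for 65.1% of all genes tested, so separation is common too. With rat tail libraries 1 and 3 and bovine library 2, the highest in rRNA, set aside, all 7 were called again in the same direction; that fit has a single rat tail library whose spread is taken from the other groups.

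Bovine collagen changed none of the 8 against media by the same test, where 0.0206% of all genes (4 of 19392) were called. At an unadjusted p under 0.05, 5 of the 8 passed, against 4.18% of all genes (810 of 19392), and DESeq2 and limma-voom called 0 of the 8. Bovine and media libraries did not overlap for 5 of the 8 genes, against 9.24% of all genes tested, so separation is uncommon in this comparison. Rat tail against bovine collagen called 54.7% of all genes and 7 of the 8, with Irf8 and Irf5 higher and Irf1, Irf2, Irf4, Irf7 and Irf9 lower. It shares the rat tail libraries with the comparison against media, so the pair of comparisons is not independent.

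**Figure D2:**
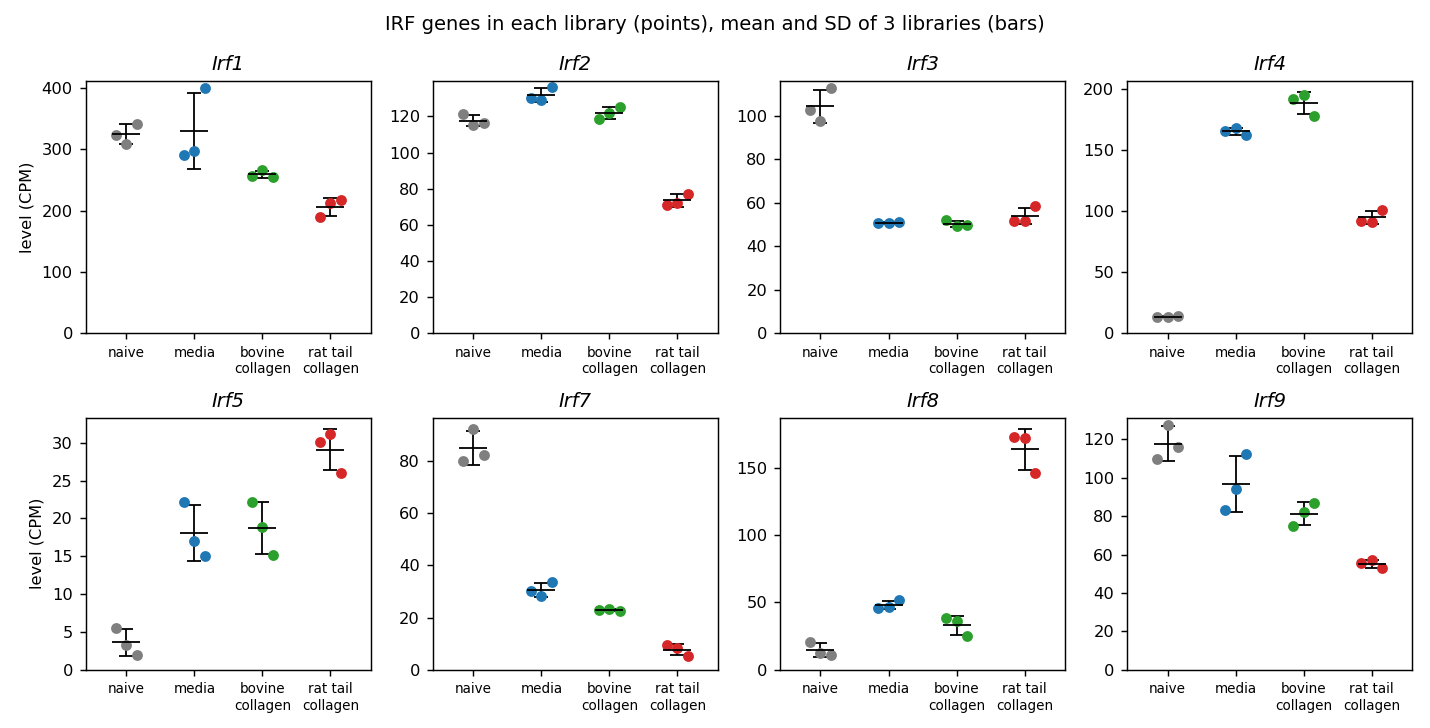
Level (CPM, linear axis from 0) of each IRF gene in each of the 12 libraries; points are libraries, the long bar is the group mean and the whiskers are 1 SD (n = 3). The rat tail libraries stand apart from both media and bovine collagen for every gene except Irf3. Irf3, Irf4, Irf5, Irf7 and Irf8 separate the naive libraries from all others. Among all genes tested, groups did not overlap for 65.1% in rat tail collagen against media and 63.9% against bovine collagen. Against naive cells the share was 67.6% for media, 69.2% for bovine collagen and 76.0% for rat tail collagen. For bovine collagen against media it was 9.24%.

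Among the interferon-inducing factors, Irf7 (chromosome 7, 141262706 to 141266481, minus strand) had the largest decrease in rat tail collagen. Its level in the naive libraries was 80.0, 92.3 and 82.5 CPM. It was 30.1, 28.3 and 33.5 CPM in media, 22.8, 23.3 and 22.6 CPM in bovine collagen and 9.43, 8.47 and 5.23 CPM in rat tail collagen. No group overlapped another, and each day 4 group lay below the naive libraries. Irf7 was 3.92-fold lower in rat tail collagen than in media (log2 fold change -1.97 ± 0.16 SE, adjusted p = 1.69e-06) and 2.94-fold lower than in bovine collagen (-1.56 ± 0.17, adjusted p = 1.23e-05). Its difference between bovine collagen and media, -0.41 (95% interval -0.75 to -0.07), did not pass the test. Media against naive gave -1.48 (adjusted p = 1.13e-06), and rat tail against naive gave -3.49, an 11.3-fold lower level.

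Irf3 (chromosome 7, 44997648 to 45002848, plus strand), the sensor-activated factor that cells hold ready before any interferon is made, differed between naive and activated cells. The naive libraries held 102.5, 97.7 and 112.8 CPM, and every day 4 library held between 49.1 and 58.3 CPM. Media against naive gave -1.05 ± 0.07 (adjusted p = 2.92e-06), a 2.06-fold lower level. Among the day 4 groups its level was 50.7 ± 0.31 CPM in media, 50.3 ± 1.55 in bovine collagen and 53.9 ± 3.85 in rat tail collagen. The difference between rat tail collagen and media was 0.11 (95% interval -0.05 to 0.26, adjusted p = 0.212), and that between rat tail and bovine collagen was 0.11 (-0.04 to 0.26, adjusted p = 0.210). With offsets for GC content and length these turned to -0.26 (adjusted p = 0.00399) and -0.23 (adjusted p = 0.00822), so the direction of Irf3 among the day 4 groups depends on that correction. Irf3 shares 88 exonic bases with Bcl2l12 on the opposite strand, and the labels do not state the strand setting of the counting.

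Irf5 (chromosome 6, 29526625 to 29541871, plus strand), which carries toll-like receptor signals to inflammatory genes in myeloid and B cells, was the least abundant of the 8 per kb in naive cells. The naive libraries held 5.57, 3.31 and 2.01 CPM, from 86 to 219 counts. Media held 22.2, 17.0 and 14.99 CPM, bovine collagen 22.1, 18.8 and 15.2 CPM, and rat tail collagen 30.1, 31.2 and 26.0 CPM. Media and bovine collagen covered the same range, and the rat tail libraries lay above both. Irf5 rose in rat tail collagen against media (0.70 ± 0.16, adjusted p = 0.00236) and against bovine collagen (0.65 ± 0.16, adjusted p = 0.00459), the latter no longer passing with GC and length offsets (0.35, adjusted p = 0.0545) or without the 3 libraries of highest rRNA share (0.74, adjusted p = 0.0861). Media against naive gave 2.31 ± 0.33 (adjusted p = 3.53e-04).

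As measured facts beside Irf5, its exons share 411 bases, 14.2% of their length, with Tnpo3 on the opposite strand; Tnpo3 had 58796 counts over the 12 libraries against 8611 for Irf5. Tnpo3 itself averaged 123.8 CPM in media and 120.9 CPM in the rat tail group (log2 fold change -0.02 ± 0.06, adjusted p = 0.836). Among naive libraries, library 1 was highest for Irf5 and also for Lyz2 (58.4 CPM, with at most 27.8 in the other naive libraries), Csf1r (41.2 against 7.96 and 8.20) and Spi1 (4.90 against 1.87 and 1.12). Without naive library 1 the difference of Irf5 between media and naive was 2.75. The part of these myeloid transcripts in the naive level of Irf5 was not tested.

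Irf9 (chromosome 14, 55603571 to 55610030, plus strand), the DNA-binding subunit of ISGF3, fell in rat tail collagen. Naive libraries held 110.0, 127.6 and 116.0 CPM, media 83.4, 94.3 and 112.4 CPM, bovine collagen 74.8, 82.2 and 86.8 CPM and rat tail collagen 55.5, 57.0 and 53.0 CPM. The rat tail libraries were below all others, whereas media overlapped both naive cells and bovine collagen. Rat tail against media gave -0.79 ± 0.10 (adjusted p = 4.94e-05) and rat tail against bovine collagen -0.55 ± 0.10 (adjusted p = 8.27e-04). The latter did not pass without the 3 libraries of highest rRNA share (-0.51, adjusted p = 0.0929). Media against naive was near the threshold (-0.29, adjusted p = 0.0438), and leaving out media library 1, media library 2, naive library 2 or naive library 3 ended that call (adjusted p = 0.0735 to 0.133). Irf9 shares 123 exonic bases with Rnf31 on the same strand, whose level differed by -0.18 between rat tail collagen and media (adjusted p = 0.0849).

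Irf1 (chromosome 11, 53770014 to 53778374, plus strand), the activator of antigen presentation genes, had levels of 323.3, 308.8 and 341.7 CPM in naive cells and 291.1, 297.9 and 400.8 CPM in media. Bovine collagen held 256.8, 265.7 and 254.9 CPM, and rat tail collagen 189.0, 212.1 and 216.4 CPM. The rat tail libraries were the lowest and the bovine libraries lay between them and the rest, without overlap. Rat tail against media gave -0.66 ± 0.12 (adjusted p = 4.46e-04), a 1.58-fold lower level. Rat tail against bovine collagen gave -0.32 ± 0.12 (adjusted p = 0.0328). That call was lost in 8 of 18 alternatives, among them leaving out rat tail library 1 or 2 or any one of the bovine libraries (adjusted p = 0.0501 to 0.123). Media against naive gave 0.02 (adjusted p = 0.903), with a sign that changed between alternatives.

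Irf2 (chromosome 8, 46739732 to 46847458, plus strand), which occupies the same elements as IRF1, had similar levels outside rat tail collagen. The naive, media and bovine libraries held from 115.4 to 136.3 CPM. The rat tail libraries held 71.0, 72.0 and 77.3 CPM, below every other library. Irf2 fell in rat tail collagen by 0.83 on the log2 scale against media (SE 0.07, adjusted p = 1.14e-06) and by 0.72 against bovine collagen (SE 0.07, adjusted p = 3.83e-06). Media against naive gave 0.16 (adjusted p = 0.0655) and bovine collagen against naive 0.03 (adjusted p = 0.662), neither of which passed. The ratio of Irf1 to Irf2 per kb was 4.64 ± 0.72 in media and 5.21 ± 0.26 in rat tail collagen, with overlapping ranges.

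Irf4 (chromosome 13, 30749226 to 30766976, plus strand), the factor induced by T cell receptor signals, showed the largest difference between naive and media cells of the 8. Naive libraries held 13.2, 12.9 and 14.2 CPM and media 165.5, 168.0 and 162.7 CPM, a 12.3-fold higher level (3.61 ± 0.07, adjusted p = 1.40e-09). Bovine collagen held 192.1, 195.1 and 178.3 CPM, all above media, and rat tail collagen 92.1, 91.2 and 101.3 CPM, all below media. Irf4 fell in rat tail collagen by 0.78 on the log2 scale against media (SE 0.07, adjusted p = 3.07e-06) and by 0.98 against bovine collagen (SE 0.07, adjusted p = 6.83e-07). Bovine collagen against media gave 0.20 (95% interval 0.04 to 0.35, adjusted p = 1), which did not pass. Rat tail cells still held 6.88-fold more Irf4 than naive cells (2.78, adjusted p = 1.67e-09).

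Irf8 (chromosome 8, 120736358 to 120756694, plus strand), the closest relative of Irf4 and a factor of myeloid, B and dendritic cells that CD8+ T cells also induce on activation, moved the other way. Its level was 46.0, 46.3 and 51.5 CPM in media, 38.2, 36.1 and 25.1 CPM in bovine collagen and 172.5, 171.9 and 146.3 CPM in rat tail collagen. Rat tail libraries lay far above the rest, and bovine libraries below media. In rat tail collagen Irf8 was 3.45-fold higher than in media (1.79 ± 0.14, adjusted p = 8.49e-07) and 4.98-fold higher than in bovine collagen (2.32 ± 0.14, adjusted p = 1.86e-07). Bovine collagen against media gave -0.53 (95% interval -0.83 to -0.23, unadjusted p = 0.00246, adjusted p = 1). That difference passed under 1 alternative, with no filter on low counts (-0.54, adjusted p = 3.86e-04).

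Naive libraries held 20.3, 12.1 and 11.003 CPM of Irf8, the highest in naive library 1, where Lyz2 and Csf1r were also highest. Media against naive gave 1.72 ± 0.21 (adjusted p = 9.29e-05), and 2.03 without naive library 1. Rat tail against naive gave 3.47, an 11.1-fold higher level. The ratio of Irf8 to Irf4 per kb was 0.20 ± 0.02 in media, 0.12 ± 0.02 in bovine collagen and 1.20 ± 0.17 in rat tail collagen (SD, n = 3). It was above 1 in all 3 rat tail libraries and in none from media or bovine collagen. In naive cells, where both were low, the ratio was 0.75 ± 0.28 and reached 1.06 in naive library 1.

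Markers of other cells that express IRF8 and IRF5 were read beside these rises. Of the 6 myeloid markers, Cd68 and Cd14 rose in rat tail collagen against media (1.58 and 3.25 on the log2 scale), Itgam fell (-1.49), and Lyz2, Csf1r and Adgre1 were at most 0.36 CPM in every day 4 library. The summed myeloid level was 9.14 to 10.1 CPM in media and 17.7 to 24.4 CPM in the rat tail group. Of the 6 dendritic markers, Zbtb46 rose (from 0.50 to 0.71 CPM in media to 3.34 to 4.30 CPM in rat tail libraries), Itgax fell, and Clec9a had no counts in any day 4 library; their sum was 13.3 to 33.5 CPM in media and 5.17 to 13.0 CPM in the rat tail group. The B cell markers summed to 13.2 to 15.5 CPM in media and 8.38 to 9.27 CPM in the rat tail group, with Pax5 at most 0.15 CPM in a day 4 library. That fall lay in Cd79b, the most abundant of them (-0.81), while Cd79a rose from 0.44 ± 0.04 CPM in media to 0.91 ± 0.45 CPM in rat tail libraries (log2 fold change 1.06, adjusted p = 0.0245). Spib, an ETS partner of IRF8 and IRF4 in B and plasmacytoid dendritic cells, rose from 0.20 ± 0.04 to 0.68 ± 0.21 CPM (1.75, adjusted p = 6.97e-04). Spi1, the ETS partner of IRF8 in myeloid cells, was at most 0.12 CPM on day 4. Beside an Irf8 level of 146.3 to 172.5 CPM, Lyz2, Csf1r, Clec9a and Pax5 were at or near 0 in the same libraries, whereas Cd68, Cd14, Zbtb46, Cd79a and Spib rose with Irf8 and Irf5. The part of these markers in the result was not tested.

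**Figure D3:**
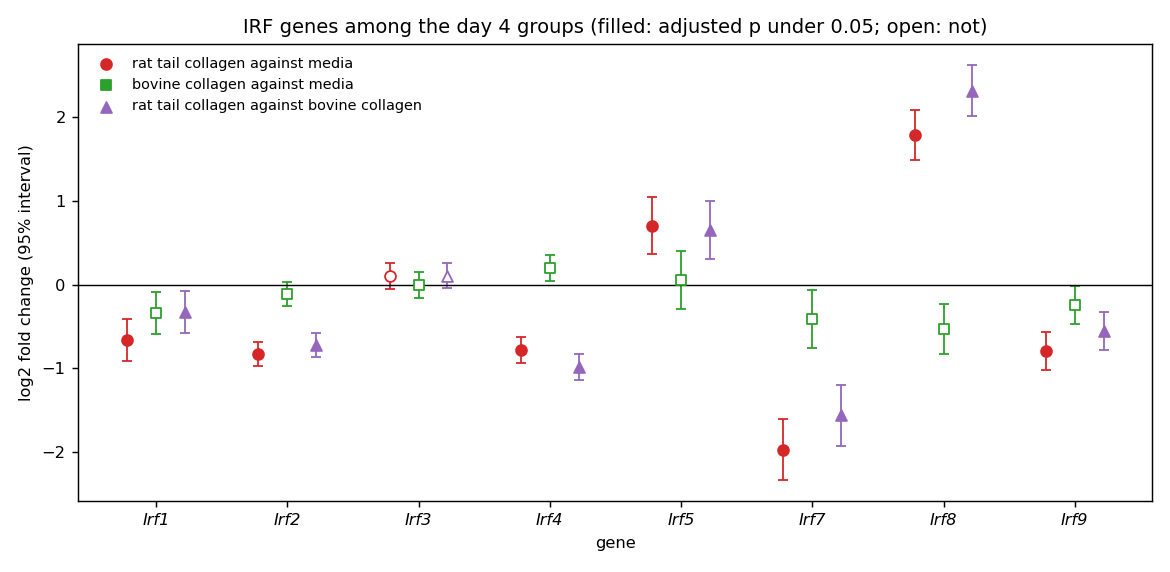
Log2 fold change of each IRF gene among the day 4 groups with its 95% interval; filled symbols passed an adjusted p of 0.05 and open symbols did not. Irf8 and Irf5 lie above 0 in both rat tail comparisons, Irf1, Irf2, Irf4, Irf7 and Irf9 below 0, and no bovine against media value passed.

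Against naive cells, each day 4 comparison has its own counts. Media had 3 of the 8 genes higher (Irf4, Irf5, Irf8) and 3 lower (Irf3, Irf7, Irf9), with 60.8% of all genes called. Bovine collagen had 3 higher and 4 lower, with 63.3% of all genes called: Irf4 (3.79), Irf5 (2.35) and Irf8 (1.18) were higher, and Irf7 (-1.91), Irf3 (-1.07), Irf9 (-0.55) and Irf1 (-0.34) lower. Rat tail collagen had 3 higher and 5 lower, with 71.9% of all genes called: Irf8 (3.47), Irf5 (2.97) and Irf4 (2.78) were higher, and Irf7 (-3.49), Irf9 (-1.13), Irf3 (-0.99), Irf2 (-0.71) and Irf1 (-0.69) lower. These comparisons use the same naive libraries. They also differ in time, activation and IL-2 at once, so those cannot be told apart.

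By group, the order of levels from low to high was rat tail collagen, bovine collagen, media and naive for Irf7 and Irf9, with bovine collagen and media not different by the adjusted test. Irf8 ran from naive through bovine collagen and media, again not different, to rat tail collagen, and Irf5 from naive through media and bovine collagen, not different either, to the rat tail group. For Irf4 the rat tail group lay between naive cells and the other day 4 groups. The order for Irf1 was rat tail collagen, bovine collagen, naive and media, the last pair not different, and for Irf2 only the rat tail group stood apart from its neighbour. For Irf3 the order was bovine collagen, media, rat tail collagen and naive; the day 4 groups did not differ by the adjusted test, and naive cells stood apart.

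The genes around the family were read from 8 lists chosen for their known roles. Of 9 interferon genes, only Ifng had enough counts to test; each of the other 8 had at most 1 count over all 12 libraries. Ifng, the main interferon of CD8+ T cells, averaged 1.30 ± 0.19 CPM in media and 0.50 ± 0.18 CPM in the rat tail group and fell by 1.34 on the log2 scale (adjusted p = 0.00247). Type I and type III interferon transcripts could not be compared at this depth.

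The list of receptors, Janus kinases and STATs held 13 genes, Socs1 and Usp18 among them. In rat tail collagen against media, 3 of the 13 rose and 4 fell, with a median of 0.00. Stat3 rose (0.88), and Ifngr1 (-1.09) and Ifnar1 (-0.62), subunits of the interferon gamma and type I receptors, fell with Jak1 (-0.75). Of 19 tested sensors, adaptors and kinases upstream of IRF3, IRF5 and IRF7, 3 rose and 10 fell (median -0.27). The adaptors Traf3 (-0.67) and Azi2 (-0.64) and the DNA sensor Cgas (-0.81) fell, and Tlr9, an endosomal DNA receptor, rose (1.23).

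Of 25 tested ISGF3 targets, genes raised by type I interferons, 17 fell and 4 rose (median -0.75). Cmpk2 (-2.35), Ifit2 (-1.13), Dtx3l (-1.03) and Parp9 (-0.94) fell, and Mx2, Oasl1, Ifi27l2a and Bst2 were the 4 that rose, named after their values were seen. Of 18 listed IRF1 targets, 14 fell and 2 rose (median -0.56). Most were genes of antigen presentation or guanylate-binding proteins, and the list also held Irgm1, Igtp, Cd274, Casp1 and Il15. The peptide transporter Tap1 (-1.09), the immunoproteasome subunit Psmb10 (-0.79), Gbp7 (-1.42) and Gbp5 (-0.98) fell. Ifit, Oas and Gbp genes have close copies whose reads the counting could have divided, so single values in those families are uncertain.

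**Figure D4:**
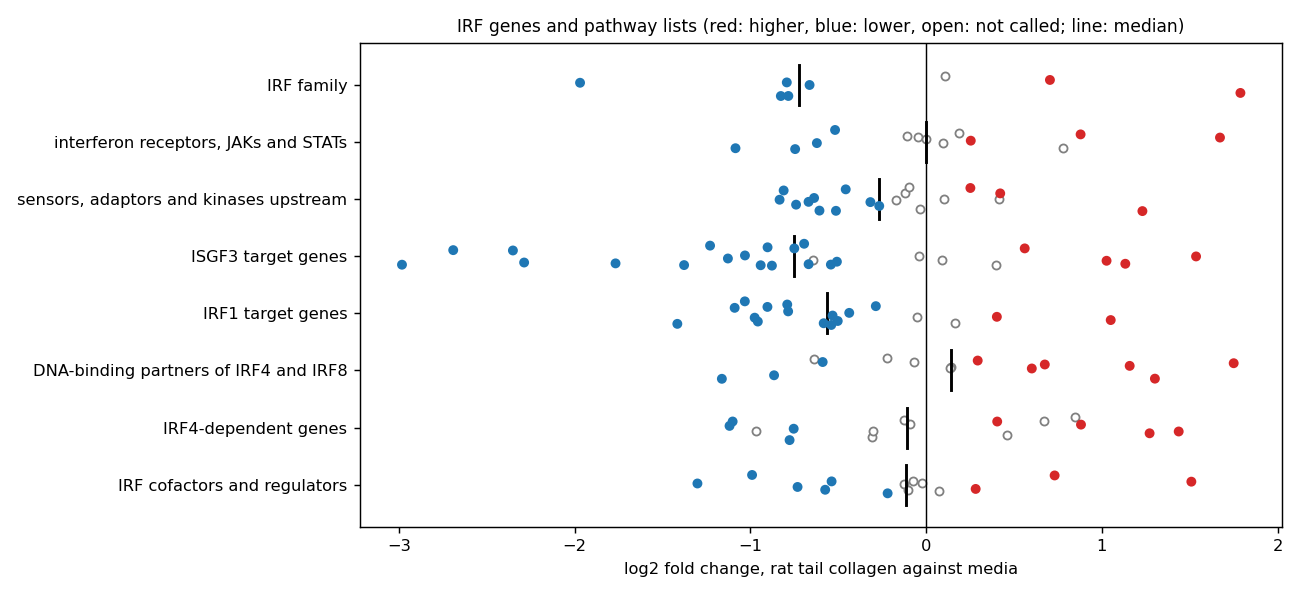
Log2 fold change, rat tail collagen against media, of the 8 IRF genes and of each tested gene in 7 lists; each point is a gene, red and blue passed an adjusted p of 0.05, open points did not, and the line is the list's median. The lists of ISGF3 and IRF1 targets have medians of -0.75 and -0.56, and the DNA-binding partners of IRF4 and IRF8 a median of 0.14.

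Among 14 tested DNA-binding partners of IRF4 and IRF8, 6 rose and 3 fell (median 0.14). Ets1 (-0.87) and Batf (-1.16), the AP-1 factor that pairs with IRF4 in T cells, fell, whereas Fosl2 (1.16) and Stat5a (0.60) rose. Of 16 genes that depend on IRF4 in CD8+ effector differentiation, 4 rose and 4 fell (median -0.11). The list does not record in which direction IRF4 acts on each gene, so these counts and this median have no expected sign. Il2ra, the high-affinity IL-2 receptor chain (1.44), and Tbx21, which encodes T-bet (0.88), rose, and Id2 (-1.10) and Foxo1 (-0.75) fell. Against naive cells, 10 of these 16 were higher in media and 2 lower, in a comparison where 60.8% of all genes were called. Among 14 cofactors and regulators, 3 rose and 6 fell (median -0.12): Nmi (-1.30) and Def6 (-0.99), an IRF4-binding protein, fell, and Irf2bpl (0.73) rose. In bovine collagen against media, 0 genes of all 8 lists were called by edgeR. For every list the counts in rat tail collagen against media stand beside 58.4% of all genes called there.

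Over the 12 libraries, Irf7 and Irf9 had a Pearson r of 0.95 on log2 CPM and Irf7 and Irf8 one of -0.93. Irf3 and Irf4 were at -0.97. The libraries share 4 groups, so these values describe the group pattern and carry no test. Among named genes with a mean of 5 CPM or more, the 3 most alike to Irf1 were Gbp5 (0.96), Gbp11 (0.94) and Gbp4 (0.93), the first and last of which were also in the list of IRF1 targets. Those most alike to Irf7 were Azi2 (0.99), H2-T24 (0.99) and Clcn4 (0.99), and to Irf9 Parp11 (0.98), Phf11c (0.98) and Maml2 (0.98). Entpd1 (0.99), Tbc1d32 (0.98) and Dusp16 (0.98) were most alike to Irf8. Entpd1, which encodes the ectonucleotidase CD39, averaged 3.95 CPM in naive cells, 11.8 in media, 10.5 in bovine collagen and 45.5 in rat tail collagen. For Irf4 they were Pole (0.998), Dnmt1 (0.997) and Incenp (0.997), genes of DNA replication, its methylation and cell division, which also rose from naive to media levels. Pkig, Tubb6 and Vcl were most alike to Irf5 (0.987 to 0.995), Selenop, Cbfb and Ppp1r15b to Irf2 (0.99), and Hsf1, Scamp3 and Hs6st1 to Irf3 (0.99).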

How the data were processed

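The submitters' processing notes name HISAT2, SAMtools, Picard and featureCounts with the builds GRCm38 and mm10; versions, annotation release and strand setting: not given in the sources used here. Raw counts per gene symbol for 12 libraries were deposited by the authors in 1 table and used as deposited. Gene positions and exon lengths come from GENCODE M21 (GRCm38), which matched 53291 of 55291 symbols, and promoters from RefSeq (GRCm38.p6).

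CPM values were scaled by TMM over the 12 libraries. Tests used edgeR 4.0.16 in R 4.3.3 (filterByExpr, TMM, robust quasi-likelihood), with Benjamini-Hochberg adjustment over all genes tested. The 9 day 4 libraries were fitted together (biological coefficient of variation 12.2%), and each naive comparison used its own 6 libraries. Alternatives were other normalizations, DESeq2 1.42.0, limma-voom (limma 3.58.1), other filters, all 12 libraries, the 6 libraries compared, the replicate number as a block and leaving out each library. Leaving out the 3 libraries of highest rRNA share, removing rRNA genes, and offsets for GC content and length were added after seeing the data. The code was tested on simulated data.

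The 8 genes and the lists were chosen with earlier results of these data known. By rule, up to 4 genes per list with the smallest adjusted p in rat tail collagen against media were named, any listed gene that stands beside a member as a marker, and the 3 genes most alike to each member. A few genes under that rule are not reported here. Sample pairs differed by a chi-square of 12.4 to 182 per gene, so no pair agreed within sampling noise. Intervals cover the spread between libraries.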

Additional observations from a re-analysis of the deposited data

How the results depend on the processing

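Of 840 values of the 8 genes under the alternatives, 801 kept their direction and their side of the threshold, 15 lost the call, 1 gained it without a change of sign and 23 changed sign, 2 of them (Irf3, with GC and length offsets) with a call gained. Without the 3 libraries of highest rRNA share, calls over all genes were 6726 in rat tail collagen against media and 5485 against bovine collagen, where 4 of the 8 IRF genes passed (Irf2, Irf4, Irf7 and Irf8); fewer libraries were tested. In bovine collagen against media, 4 genes of all were called, against 9 with library totals, 22 with DESeq2, 39 with no filter (1 of the 8, Irf8), 2 with the 6 libraries compared, 7 with the replicate block, 1 without the high-rRNA libraries and 2 to 5 leaving out each library. Library totals moved the median of all genes in rat tail against bovine collagen from 0.00 to 0.15 and the split of calls from 5499 higher and 5118 lower to 6329 and 3221.

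Signs changed only in values that had not passed. Irf3 turned to -0.26 against media and -0.23 against bovine collagen in the rat tail comparisons with GC and length offsets. In bovine collagen against media it was 0.0028 with RLE size factors, 0.0031 with DESeq2, 0.0011 with the 6 libraries, 0.013 without the high-rRNA libraries and -0.028 to 0.013 leaving out each library; Irf5 there was -0.030 with library totals and -0.084 to 0.24 leaving out each library. Irf1 in media against naive was -0.0035 with RLE size factors and with DESeq2, -0.020 with library totals, -0.0022 with a filter of 1 CPM, -0.044 with all 12 libraries and -0.13 to 0.10 leaving out each library. Irf2 in bovine collagen against naive was -0.076 with library totals, -0.0067 with all 12 libraries and -0.050 with GC and length offsets. The causes were not tested.

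The labels do not say what same-numbered libraries share, and the numbers were not treated as pairs. The correlations of their deviations ran from 0.04 to 0.11 in rat tail collagen against media and from 0.03 to 0.45 in bovine collagen against media. Every library correlated best with its own number in the former, and also in rat tail collagen against naive cells (0.05 to 0.15). In bovine collagen against media the values were 0.38, 0.03 and 0.45 for numbers 1, 2 and 3. There bovine library 2 alone correlated better with another number (0.06 with media library 1). These are hints from the data and not from the design. The block ended or added no call among the 8 genes, and called 12070 genes against 11319 in rat tail collagen against media.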

Other observations

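Of 5 genes read as markers of natural killer, CD4 T and gamma-delta T cells, Klrb1c and Zbtb7b rose with Irf8 in rat tail collagen. Trdc, of the T cell receptor delta chain, fell. Trdc averaged 13.7 CPM in media and 8.85 CPM in the rat tail group (log2 fold change -0.62). Klrb1c was at 0.48, 0.33 and 0.17 CPM in media and 9.93, 8.17 and 7.97 CPM in the rat tail group (log2 fold change 4.71). Zbtb7b was at 33.4, 26.7 and 19.2 CPM in media and 59.0, 53.5 and 48.7 CPM in the rat tail group (1.04). Ncr1, a defining gene of natural killer cells, was at most 0.25 CPM in any day 4 library, and Cd4 was at 2.00 to 3.87 CPM in all of them.

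Irf5 and Itgax took nearly equal levels in media and bovine libraries of the same number. Irf5 was at 22.2 and 22.1 CPM in the libraries numbered 1, 17.0 and 18.8 in those numbered 2, and 14.99 and 15.2 in those numbered 3. Itgax, an integrin chain used here as a dendritic marker, was at 32.9 and 32.0 CPM, 23.0 and 23.6 CPM, and 12.7 and 13.6 CPM in the same pairs. Nothing in the labels says what libraries of the same number share.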
